A study of Mus musculus with 6 samples.

Results

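Transcripts for monocarboxylate transport and lactate formation were followed in the mouse melanoma line B16F10 grown in 2 culture media. The set holds 9 genes picked by symbol from the 21878 in the deposited table: the transporters Slc16a1, Slc16a3, Slc16a6, Slc16a7 and Slc16a8, their chaperones Bsg and Emb, and the lactate dehydrogenase subunits Ldha and Ldhb. All 9 symbols were found. There were 3 RNA-seq libraries from cells kept in DMEM and 3 from cells kept in RPMI-1640. The labels give every library as wild type, with time 0, and both media contained 10% fetal bovine serum and antibiotics. An unexplained code, HG, stands in the titles of the DMEM libraries, and the labels state no glucose level. The labels also attach to all libraries a text on fat cell differentiation with dexamethasone, isobutylmethylxanthine and insulin. Whether the 3 libraries within each medium are separate cultures is not stated; p-values therefore cover only library-to-library spread, possibly of technical origin.

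Glycolytic cells turn pyruvate into lactate with lactate dehydrogenase, a tetramer of A and B subunits, and this regenerates the NAD+ that glycolysis needs. Lactate then leaves or enters cells together with a proton through MCT1, MCT2, MCT3 and MCT4, the lactate carriers of the Slc16 family. These carriers need a single-pass immunoglobulin-family partner, basigin or embigin, to reach the plasma membrane. Other Slc16 members carry other substrates. In tumours this system is known for letting glycolytic cells shed acid and for supplying lactate to neighbouring cells. The series title names SLC16A3.

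Values are FPKM, which scales fragments to gene length and to library size, so levels can be compared roughly between genes. Trends with gene length and GC content, and sequence shared with other genes, limit that comparison, as given below. The FPKM values move in steps of whole reads, which put the library totals at 36960000 to 46404000 reads. All 9 melanocyte lineage markers (Mitf, Tyr, Tyrp1, Dct, Pmel, Mlana, Sox10, Slc45a2 and Gpr143) reached 1 FPKM, with a summed level of 13400 to 13640 FPKM in DMEM and 10920 to 11090 FPKM in RPMI-1640. None of the 9 adipocyte markers reached 1 FPKM. Their summed level ran from 0.172 to 0.685 FPKM in DMEM and from 0.00863 to 0.158 FPKM in RPMI-1640, and Fabp4, Cidec, Lep and Cebpa were at 0 in all libraries. Of 5 macrophage markers, Ptprc and Adgre1 were at 0, Lyz2 and Cd68 reached 1 FPKM with a highest value of 2.77 FPKM, and the sum was 4.09 to 4.38 FPKM in DMEM and 3.09 to 3.71 FPKM in RPMI-1640. Of 5 fibroblast markers, Dcn was at 0, Col1a2 and Pdgfrb reached 1 FPKM with a highest value of 5.08 FPKM, and the sum was 5.46 to 5.79 FPKM in DMEM and 8.24 to 8.86 FPKM in RPMI-1640; the part of these low signals in the results below was not tested.

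The promoter windows shown were chosen with the results known. Slc16a3 and Ldha, both known targets of hypoxia-inducible factors, were higher in DMEM, and so was Ldhb, whose window is not shown. Slc16a1 did not pass on deposited values and Emb was lower. Whether the marked letters have a part in these differences was not tested. RefSeq windows of build GRCm38.p6, running from 250 bases before to 50 bases after the annotated start, were at hand for 6 of the 9 genes and not for Bsg, Slc16a6 and Slc16a7. Each is written along the gene's strand, here always plus. Capitals mark ACGTG and GCGTG, the core letters of hypoxia response elements, read on either strand (CACGT and CACGC are their reverse), and CACGTG, the E-box, which contains ACGTG on both strands.
Slc16a3, chr11:120948817-120949116: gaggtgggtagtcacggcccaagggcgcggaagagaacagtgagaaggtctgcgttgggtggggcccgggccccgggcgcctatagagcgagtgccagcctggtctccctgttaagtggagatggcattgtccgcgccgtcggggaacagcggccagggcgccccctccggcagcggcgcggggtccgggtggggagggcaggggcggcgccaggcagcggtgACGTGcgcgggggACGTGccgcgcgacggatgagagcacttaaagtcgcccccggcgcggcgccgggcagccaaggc
Ldha, chr7:46845554-46845853: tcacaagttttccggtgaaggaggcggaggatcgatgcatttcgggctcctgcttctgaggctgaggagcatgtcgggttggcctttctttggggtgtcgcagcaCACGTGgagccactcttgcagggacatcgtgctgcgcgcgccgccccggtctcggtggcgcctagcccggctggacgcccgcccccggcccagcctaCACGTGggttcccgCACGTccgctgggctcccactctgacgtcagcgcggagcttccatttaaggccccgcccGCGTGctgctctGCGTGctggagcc
Slc16a1, chr3:104638414-104638713: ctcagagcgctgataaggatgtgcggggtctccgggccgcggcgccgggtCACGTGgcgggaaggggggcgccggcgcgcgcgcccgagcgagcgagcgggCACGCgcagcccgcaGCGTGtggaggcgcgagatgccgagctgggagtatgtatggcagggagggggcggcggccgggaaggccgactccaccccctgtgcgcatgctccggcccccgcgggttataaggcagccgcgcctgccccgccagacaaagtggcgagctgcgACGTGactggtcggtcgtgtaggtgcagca
Emb, chr13:117220323-117220622: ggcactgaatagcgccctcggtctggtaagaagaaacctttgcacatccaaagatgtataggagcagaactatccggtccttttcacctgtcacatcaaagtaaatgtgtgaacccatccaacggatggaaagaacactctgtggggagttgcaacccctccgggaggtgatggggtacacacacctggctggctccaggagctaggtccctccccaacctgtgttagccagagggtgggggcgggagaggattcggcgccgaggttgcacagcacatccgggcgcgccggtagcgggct

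The Slc16a3 window held ACGTG at 2 places, beginning 27 and 14 bases before the start, and no CACGTG. Ldha has 2 RefSeq windows; the one shown held ACGTG at 3 places, 2 of them inside a CACGTG, and GCGTG at 2, while the other held only GCGTG, also at 2. In the window of Slc16a1, ACGTG stood at 2 places, 1 of them inside a CACGTG, and GCGTG at 2. The window of Emb held none of these letters, nor did that of Slc16a8, and that of Ldhb held only 1 GCGTG. Over all 32851 windows, 19.6% held ACGTG, 32.4% held GCGTG, 7.2% held CACGTG and 2.7% held ACGTG at 2 or more places. A match describes the sequence and is not a binding site, and these CG-holding letters are met more easily in GC-rich windows such as those of Slc16a3 (73.3% GC), Slc16a1 (73.7%) and Ldha (67.3%) than in that of Emb (57.7%).

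Of the 9 genes, 8 averaged 1 FPKM or more across all libraries and were tested; Slc16a7 was not. Slc16a8 passed this filter through the RPMI-1640 libraries alone, so its mean there had to be the higher one. Since the filter favoured a difference, Slc16a8 is left out of the member counts in this paragraph. Fold changes are DMEM minus RPMI-1640 on log2(FPKM + 1), where differences of weakly expressed genes come out too small, and calls are at an adjusted p under 0.05 in limma. Slc16a3, Bsg, Ldha and Ldhb were higher in DMEM, Slc16a6 and Emb were lower in DMEM, and Slc16a1 did not pass. These are 6 of 7 genes, where 76.0% of all 10624 tested genes were called (35.4% higher and 40.6% lower in DMEM), so the number called is near the background. The media did not overlap for 6 of these 7 genes, again near the 79.0% of all tested genes (36.7% with the higher values in DMEM and 42.2% with the lower ones). The sizes of 3 of them were less common: Slc16a3, Bsg and Slc16a6 were called with at least 1 on the log2 scale, which 6.38% of all tested genes reached. For Bsg this depended on the processing, as it was 0.78 with the length and GC trend removed and 0.915 with quantile normalization. The median log2 fold change of the 7 genes was 0.61, or 0.35 with Slc16a8 included, against -0.03 over all tested genes. With values scaled to a common total, the median of all genes became -0.18 and the split of calls 2659 higher and 5471 lower in DMEM, against 3762 and 4316 on the deposited values; the direction of Slc16a3, Bsg, Ldha, Ldhb, Slc16a6, Slc16a8 and Emb held there, and that of Slc16a1 flipped.

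**Figure D1:**
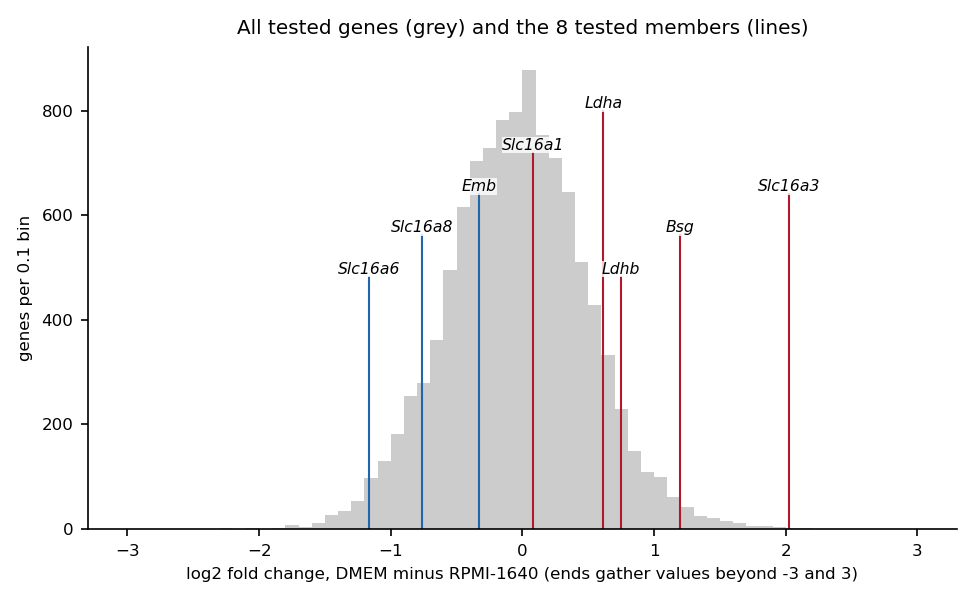
Histogram of log2 fold changes (DMEM minus RPMI-1640, x axis) of all tested genes in bins of 0.1 (y axis, genes per bin), with vertical lines at the 8 tested genes of the set, red above 0 and blue below 0; line heights only separate the names. Slc16a3 at 2.02 lies in the thin right tail, Bsg at 1.20 and Slc16a6 at -1.16 lie near the edges, and Slc16a1 at 0.08 lies in the centre.

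The media also differed along gene length and base composition. Across 10324 tested genes with an annotated sequence, the fold change had a Spearman correlation of -0.464 with gene length and 0.469 with GC content, so shorter and GC-richer genes tended to be higher in DMEM; genes are not independent replicates. The deviation of a library from its medium's mean also followed GC content, at 0.639 for DMEM replicate 3 and -0.475 for DMEM replicate 1. RPMI-1640 replicate 3 deviated in the same direction as DMEM replicate 3, at 0.42. The title of DMEM replicate 3 alone ends in L3. All others, that of RPMI-1640 replicate 3 included, end in L2, without an explanation in the labels. Fold changes with this trend removed from each library are therefore given beside the others; in that fit 74.0% of the genes were called (36.8% higher and 37.1% lower in DMEM). The 9 genes span much of this range, with GC contents of the longest transcript from 37.7% in Slc16a7 and 42.9% in Slc16a1 to 57.6% in Bsg and 63.3% in Slc16a8.

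**Figure D2:**
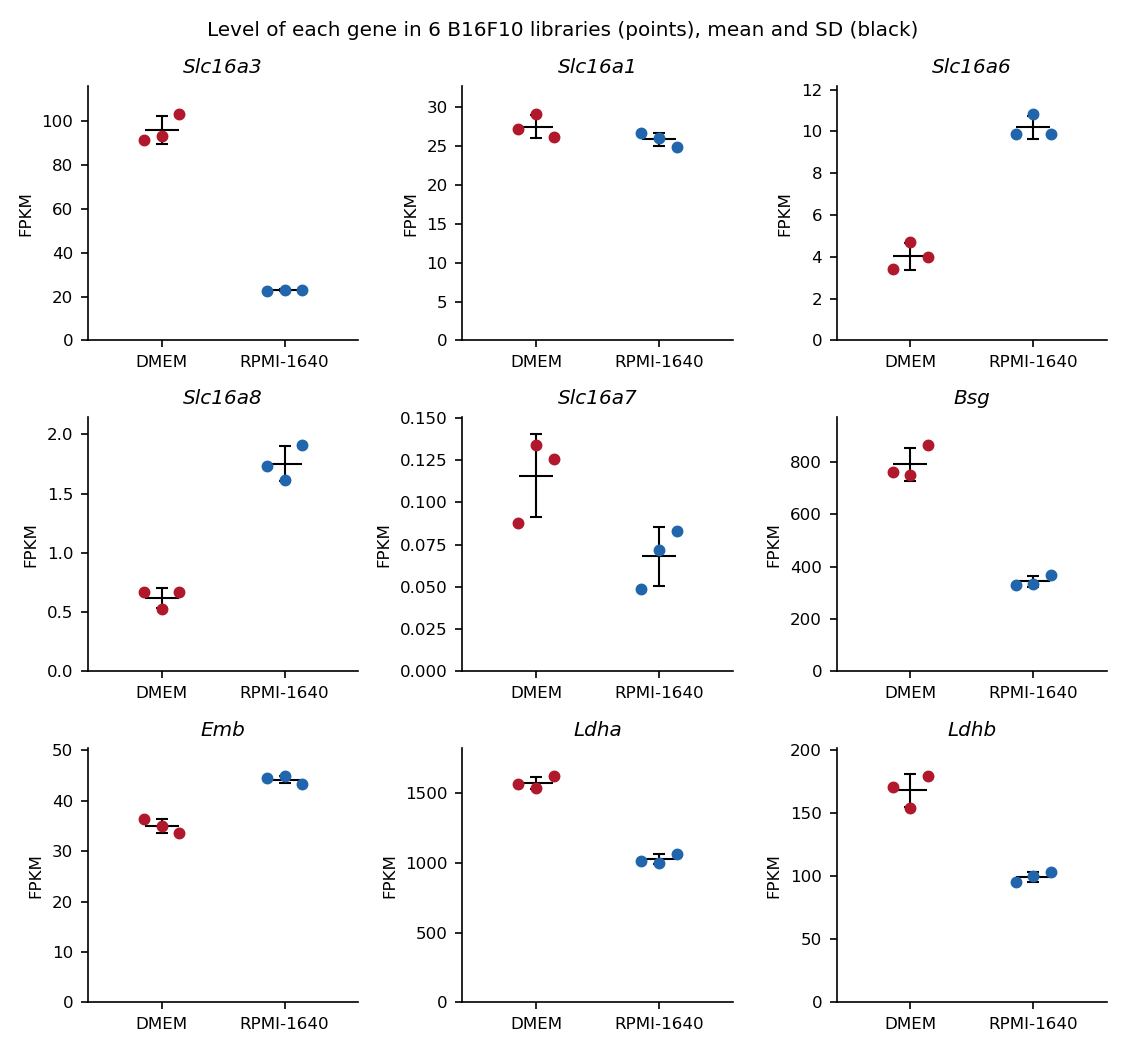
FPKM (y axis, from 0, own scale for each gene) of the 9 genes in the 3 DMEM libraries (red, left) and the 3 RPMI-1640 libraries (blue, right); points are libraries, black bars are means with SD. Slc16a3, Bsg, Ldha and Ldhb are higher in every DMEM library, Slc16a6, Slc16a8 and Emb are lower in every DMEM library, the points of Slc16a1 overlap, and Slc16a7 stays under 0.14 FPKM.

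Slc16a3 encodes MCT4, the proton-coupled transporter known for exporting lactate from glycolytic cells. Its level was 91.5, 93.2 and 103 FPKM in DMEM, against 22.4, 23.2 and 22.9 FPKM in RPMI-1640, and 2199 to 12139 reads per library lay behind these values. Every DMEM library was about 4 times as high as any RPMI-1640 library. In limma the log2 fold change was 2.02 with an SE of 0.054 and an adjusted p of 4.39e-10. Only 10 of the 10624 tested genes had a higher one. With the length and GC trend removed it was 1.76. In GRCm38 the gene, ENSMUSG00000025161.16, spans bases 120948480 to 120960868 of chromosome 11 on the plus strand.

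Slc16a1 encodes MCT1, which carries lactate and pyruvate in either direction. It had 27.1, 29.1 and 26.2 FPKM in DMEM and 26.7, 26.0 and 24.9 FPKM in RPMI-1640, and the media overlapped. Its log2 fold change of 0.08 had a 95% interval from -0.04 to 0.21 and did not pass (limma adjusted p = 0.190; exact two-sided permutation test, p = 0.2). This result depended on the processing: scaling to a common total gave -0.08, and it passed at 0.13 with limma-voom on recovered reads (adjusted p = 0.0452) and at 0.49 with the length and GC trend removed (adjusted p = 1.30e-06). The gene (ENSMUSG00000032902.1, plus strand of chromosome 3, 104638668 to 104658462) is long, with 4430 bases implied by the FPKM steps, and has one of the lowest GC contents of the set.

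The different response of these common lactate carriers is free of any scaling between libraries when taken as a ratio. Slc16a3 FPKM over Slc16a1 FPKM was 3.37, 3.20 and 3.93 in the DMEM libraries and 0.841, 0.893 and 0.918 in the RPMI-1640 libraries. Thus Slc16a3 exceeded Slc16a1 in each DMEM library and lay below it in each RPMI-1640 library. With 3 libraries in each medium, the smallest p that an exact two-sided permutation test allows is 0.1, and it was reached here. With the trend removed the mean ratio was 2.76 in DMEM and 1.12 in RPMI-1640, so the ratio still differed without overlap, while Slc16a3 then exceeded Slc16a1 in both media.

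Slc16a6 encodes MCT7, known from zebrafish liver as an exporter of the ketone body beta-hydroxybutyrate. It stood at 3.40, 4.69 and 3.97 FPKM in DMEM and at 9.87, 10.8 and 9.89 FPKM in RPMI-1640, opposite to Slc16a3. The lowest RPMI-1640 library was above the highest DMEM library, and the mean was 2.54-fold higher in RPMI-1640. The log2 fold change was -1.16 (SE 0.091; adjusted p = 5.47e-07 in limma), with 179 tested genes lower, and it stayed at -1.12 with the trend removed. The gene (ENSMUSG00000041920.14) spans 109450855 to 109473598 on the minus strand of chromosome 11, and 21.5% of its exon bases overlap exons of Amz2 on the other strand. The sources used here do not say whether counting was stranded, and without strand the reads of that overlap cannot be told apart. Amz2 itself was higher in DMEM, at 24.3 ± 0.204 FPKM against 21.5 ± 0.636 FPKM in RPMI-1640 (SD, n = 3 each; log2 fold change 0.17, limma adjusted p = 0.00848), the opposite direction to Slc16a6.

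Slc16a8 encodes MCT3, a lactate transporter known from the retinal pigment epithelium. It was low, at 0.668, 0.524 and 0.671 FPKM in DMEM and at 1.73, 1.62 and 1.91 FPKM in RPMI-1640. These values rest on 33 to 53 reads in DMEM and 115 to 125 reads in RPMI-1640, and the media did not overlap. Because the filter kept it only through the medium where it was high, its test is given from the fit of all genes without the filter, with a log2 fold change of -0.76 (limma adjusted p = 6.71e-05). In fits that kept the filter, the value was -1.49 with a pseudocount of 0.01 and -1.44 with limma-voom on recovered reads. It was -1.25 with the trend removed, also with the filter. These values describe how the size depends on processing and add no support for the difference. The gene (ENSMUSG00000032988.4) spans 79251014 to 79254761 on the minus strand of chromosome 15.

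Slc16a7 encodes MCT2, a high-affinity carrier of pyruvate and lactate. It was barely detected, at 0.0877, 0.134 and 0.126 FPKM in DMEM and at 0.0490, 0.0718 and 0.0831 FPKM in RPMI-1640, on 17 to 52 reads per library. Every DMEM library was above every RPMI-1640 library, with a narrow gap. Without the filter on low values its log2 fold change was 0.06 and did not pass (limma adjusted p = 0.0554). The gene (ENSMUSG00000020102.15) spans 125219270 to 125389465 on the minus strand of chromosome 10.

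Summed over the 5 transporters, the level was 123, 128 and 134 FPKM in DMEM and 60.7, 61.7 and 59.7 FPKM in RPMI-1640, a 2.11-fold difference. The make-up of this sum differed as well. Slc16a3 made up 74.8 ± 1.95% of it in DMEM and 37.6 ± 0.721% in RPMI-1640 (SD, n = 3 each). Slc16a1 made up 21.5 ± 1.71% in DMEM and 42.6 ± 1.15% in RPMI-1640, although its own level did not pass the test. Slc16a6 made up 3.13 ± 0.476% in DMEM and 16.8 ± 0.668% in RPMI-1640, a share 5.36-fold higher in RPMI-1640. None of these shares overlapped between the media. The shares of Slc16a3 and Slc16a1 moved closer with the trend removed, to 70.7% and 25.6% in DMEM and to 42.0% and 37.4% in RPMI-1640.

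**Figure D3:**
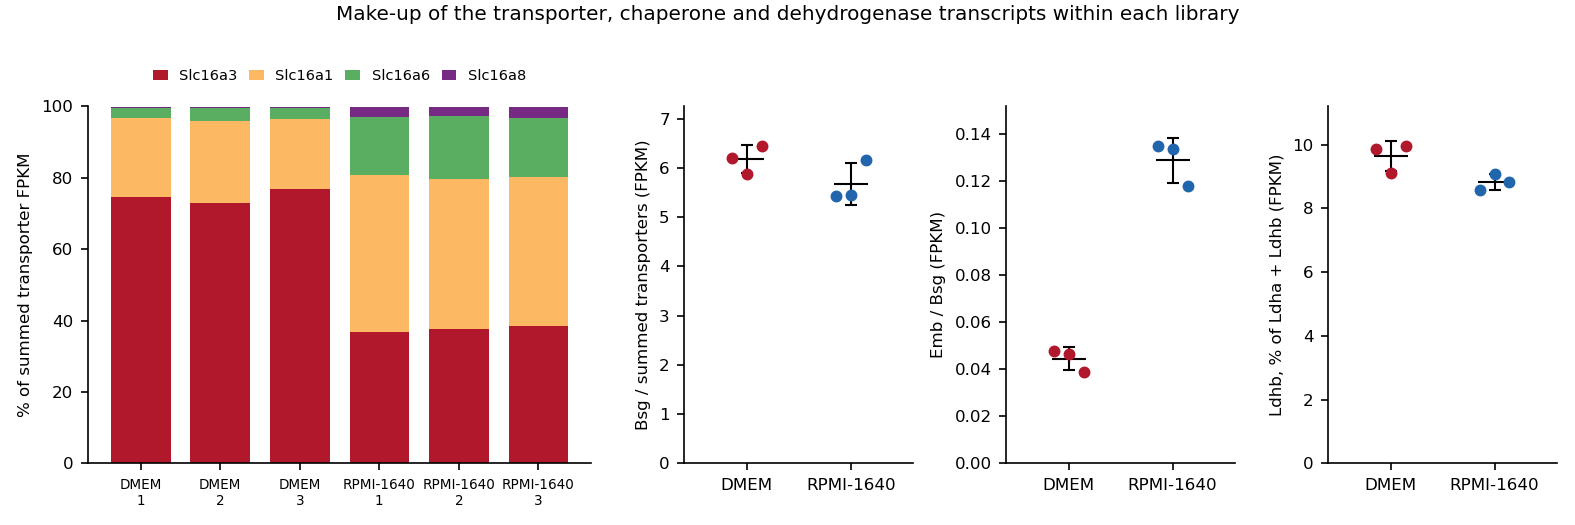
Left, stacked bars of the share of summed transporter FPKM (y axis, %) held by Slc16a3, Slc16a1, Slc16a6 and Slc16a8 in each library; Slc16a7 is too low to be drawn. Right, the ratio of Bsg to the summed transporters, the ratio of Emb to Bsg, and Ldhb as % of Ldha plus Ldhb, with points for libraries (DMEM red and left, RPMI-1640 blue and right) and black bars for means with SD. Slc16a3 fills a mean of 74.8% of the DMEM bars and 37.6% of the RPMI-1640 bars, and Emb over Bsg is higher in each RPMI-1640 library.

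Bsg encodes basigin, the chaperone that carries MCT1 and MCT4 to the plasma membrane. It was the 2nd most abundant transcript of the set, at 761, 750 and 864 FPKM in DMEM and at 329, 336 and 368 FPKM in RPMI-1640. All DMEM libraries lay above all RPMI-1640 libraries, with the highest value of each medium in its replicate 3. The log2 fold change was 1.20 (SE 0.065; adjusted p = 4.92e-08 in limma), or 0.78 with the trend removed. The gene (ENSMUSG00000023175.15) spans 79704491 to 79711969 on the plus strand of chromosome 10.

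Emb encodes embigin, a relative of basigin that can also escort monocarboxylate transporters. It went the other way, at 36.5, 35.0 and 33.7 FPKM in DMEM and at 44.4, 44.9 and 43.4 FPKM in RPMI-1640. The media did not overlap, but the difference was small, with a log2 fold change of -0.33 (SE 0.049; adjusted p = 7.74e-05 in limma). It shrank to -0.17 with the trend removed and was still called (adjusted p = 0.000646). Some 22.7% of the 32-base words of its longest transcript also occur in transcripts of other genes. Of its exon bases, 9.93% overlap exons of Gm17509 on the other strand, where reads cannot be told apart without strand. The level of Emb is therefore uncertain too. The gene (ENSMUSG00000021728.8) spans 117208536 to 117274415 on the plus strand of chromosome 13.

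Taken within each library, Emb over Bsg was 0.0479, 0.0467 and 0.0390 in DMEM and 0.135, 0.134 and 0.118 in RPMI-1640. The ratio was 2.90-fold higher in RPMI-1640 with no overlap (exact two-sided permutation test, p = 0.1, the smallest possible), and 1.95-fold higher with the trend removed. Bsg over the summed transporters was 6.20, 5.87 and 6.44 in DMEM and 5.42, 5.44 and 6.16 in RPMI-1640, and here the media overlapped (p = 0.2 in the same exact test). With the trend removed its direction turned, at 5.53 in DMEM and 6.64 in RPMI-1640. So basigin transcripts exceeded transporter transcripts 5-fold or more in every library, and no direction between the media can be given for that ratio.

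Ldha encodes the A subunit of lactate dehydrogenase, which is known for favouring the step from pyruvate to lactate. It was the most abundant transcript of the set and ranked 29th of all genes in the table. Its level was 1563, 1537 and 1620 FPKM in DMEM and 1015, 1002 and 1065 FPKM in RPMI-1640. The media were far apart relative to their spread, but the log2 fold change was a modest 0.61 (SE 0.053; adjusted p = 1.17e-06 in limma), or 0.41 without the trend and 0.19 when quantile-normalized. Of its 32-base words, 33.2% also occur in transcripts of other genes, among them the pseudogene Ldha-ps2, so its level is uncertain. The gene (ENSMUSG00000063229.15) spans 46841475 to 46855627 on the plus strand of chromosome 7.

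Ldhb encodes the B subunit, known for its prevalence in tissues that oxidise lactate. It stood at 171, 154 and 179 FPKM in DMEM and at 95.2, 100.1 and 103 FPKM in RPMI-1640. It was higher in each DMEM library, in the same direction as Ldha, with a log2 fold change of 0.75 (SE 0.060; adjusted p = 6.00e-07 in limma), or 0.42 with the trend removed. Words shared with other genes, here the predicted gene Gm5514, made up 40.5% of its transcript, so its level is also uncertain. The gene (ENSMUSG00000030246.11) spans 142490249 to 142507957 on the minus strand of chromosome 6.

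The balance of the subunits differed little. Ldhb made up 9.86%, 9.10% and 9.96% of Ldha plus Ldhb in DMEM and 8.58%, 9.08% and 8.83% in RPMI-1640. The lowest DMEM library and the highest RPMI-1640 library almost touched (exact two-sided permutation test, p = 0.1, the smallest possible). With the trend removed the shares were 9.25% in DMEM and 9.20% in RPMI-1640 and overlapped.

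**Figure D4:**
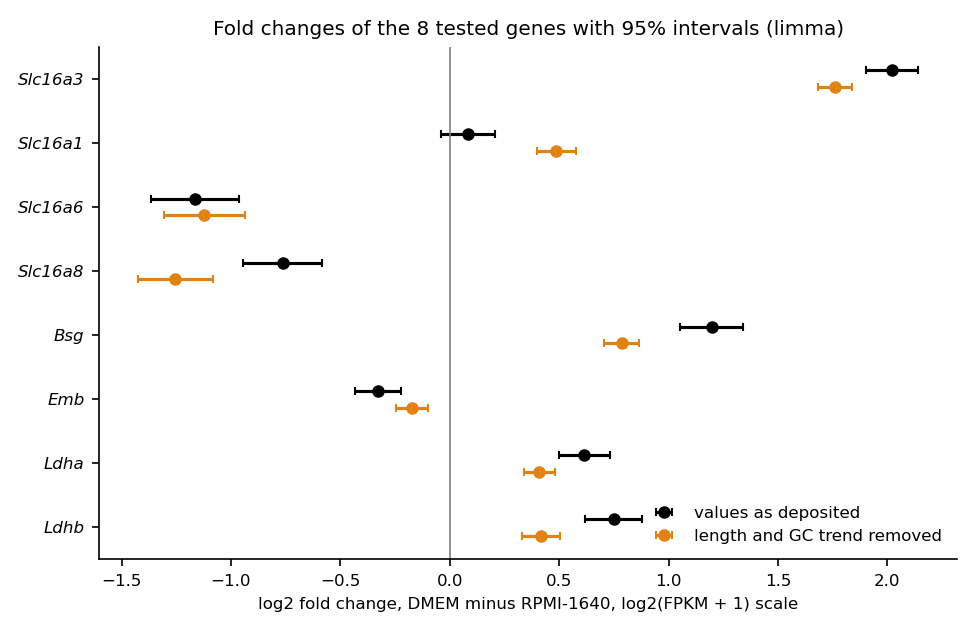
Log2 fold changes (x axis, DMEM minus RPMI-1640, log2(FPKM + 1) scale) of the 8 tested genes (y axis), with 95% intervals from limma, on deposited values (black) and with the length and GC trend of each library removed (orange). The sign of each gene is the same in both, and Slc16a1 leaves 0 only with the trend removed. Slc16a3, Slc16a6, Bsg, Emb, Ldha and Ldhb move towards 0, Slc16a6 least of them, and Slc16a8 moves away from it. The filter kept Slc16a8 only through RPMI-1640, so its intervals add no support.

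In both media Ldha, Bsg and Ldhb were the 3 highest and Slc16a6, Slc16a8 and Slc16a7 the 3 lowest. Between them stood Slc16a3, Emb and Slc16a1 in falling order in DMEM, and Emb, Slc16a1 and Slc16a3 in falling order in RPMI-1640. No neighbours in either order overlapped over the 3 libraries of the medium on deposited values. With the length and GC trend removed, Slc16a3 stood above Slc16a1 in RPMI-1640 as well (mean ratio 1.12). Ldha over Slc16a3 was 16.4 ± 0.684 in DMEM and 45.0 ± 1.67 in RPMI-1640 (SD, n = 3 each), so the transporter differed more than the enzyme.

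The genes whose pattern over the 6 libraries lay nearest to that of Slc16a3 were H2-K1, Trpm1, Cck, Mvd and Cited1, out of 8288 candidates with a mean of at least 5 FPKM. Their Euclidean distances on centred log2(FPKM + 1) were 0.112, 0.166, 0.200, 0.241 and 0.250. H2-K1, for instance, stood at 62.4, 59.9 and 65.2 FPKM in DMEM and at 14.9, 15.8 and 15.0 FPKM in RPMI-1640. It belongs to a family of near-identical genes, so its level is uncertain. Of the set, Bsg lay nearest at 1.02, with 95 candidates nearer, and Slc16a6 farthest at 3.91.

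Among the other 9 Slc16 genes, Slc16a13 alone reached a mean of 1 FPKM. It was higher in DMEM, at 5.44 FPKM against 4.43 FPKM in RPMI-1640 (log2 fold change 0.24, limma adjusted p = 0.00977), and did not pass with the trend removed (0.07). Hcar1, the cell surface receptor for lactate, named after its values were seen, stood at 0.584, 0.560 and 0.590 FPKM in DMEM and at 0.0781, 0.215 and 0.161 FPKM in RPMI-1640, on 34 to 45 reads in DMEM and 5 to 16 reads in RPMI-1640. Its values did not overlap between the media, and it was not tested.

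Of 9 other genes of lactate and pyruvate handling, 3 were tested. Mpc1, of the mitochondrial pyruvate carrier, and Mpc2 were called higher in DMEM, and Nptn, a relative of basigin and embigin, was called lower (median log2 fold change 0.17). Mpc1 stood at 33.5 FPKM in DMEM and 25.8 FPKM in RPMI-1640 (log2 fold change 0.36). Nptn stood at 43.1 FPKM in DMEM and 51.4 FPKM in RPMI-1640 (-0.25), and did not pass with the trend removed (-0.02). Of the basigin ligands, Ppib was called higher in DMEM at 0.37, or 0.12 with the trend removed. Ppia had 2622, 2906 and 1532 FPKM in DMEM and 2686, 2871 and 2944 FPKM in RPMI-1640, with DMEM replicate 3 far below the others; it did not pass at -0.32 and was called lower in DMEM with the trend removed, at -0.57 (limma adjusted p = 0.0248).

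All 14 enzymes listed from hexokinase to pyruvate kinase, which make the pyruvate that lactate dehydrogenase uses, were called higher in DMEM, with a median log2 fold change of 0.89 and the same count with the trend removed. Of all tested genes 35.4% were called higher, and the list was chosen with earlier results of these data known, so its count is a description. The aldolase gene Aldoc had 22.5 FPKM in DMEM and 6.03 FPKM in RPMI-1640 (log2 fold change 1.74), and Gapdh had the highest fold change of the list at 4.59. Gapdh varied widely within DMEM, with 113, 315 and 530 FPKM there and 9.63, 11.3 and 9.51 FPKM in RPMI-1640. Its mean in RPMI-1640 was below that of every other listed enzyme except Aldoc. Whether its sequence is shared with other genes was not examined, so its level and the size of its difference are uncertain. Of 7 known regulators of the set, Max was called higher in DMEM, Hif1a, Arnt, Myc and Mitf were called lower, and Epas1 and Ppargc1a did not pass (median -0.32). Over all tested genes 76.0% were called, 40.6% of them all as lower in DMEM, so the number called is near the background. The split of the regulators depended on the trend. With it removed, 3 were called higher, namely Max at 0.29, Ppargc1a at 0.62 and Epas1 at 0.28, and 3 lower, namely Arnt, Myc and Mitf. In that fit 74.0% of all genes were called. Myc, a transcription factor known to act on lactate dehydrogenase A and MCT1 genes, stood at 10.4, 10.4 and 10.8 FPKM in DMEM and at 18.6, 19.0 and 18.3 FPKM in RPMI-1640 (log2 fold change -0.77, and -0.95 without the trend). Mitf, the melanocyte lineage factor, was at 55.8 FPKM in DMEM and 81.5 FPKM in RPMI-1640 (-0.54), and this shrank to -0.11 with the trend removed. Hif1a, with -0.38, turned to 0.06 and did not pass there.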

How the data were processed

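RNA-seq was run on 6 libraries of B16F10 cells, 3 in DMEM and 3 in RPMI-1640, grouped by the medium in their titles. Per the labels, libraries were prepared with a SMARTer kit from 2 µg of Trizol-extracted total RNA. The authors deposited 1 table of FPKM per gene symbol, with libraries not pooled; per the submitters' processing notes the builds were GRCm38 and mm10. Not given in the sources used here are the aligner, counter, annotation and strand setting.

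Genes averaging 1 FPKM or more over all libraries (10624 of 21878) were tested on log2(FPKM + 1), with no further scaling, in limma 3.58.1 under R 4.3.3 (lmFit, eBayes with a mean-variance trend, medium as the only term, two-sided, Benjamini-Hochberg adjustment over all genes tested, called under 0.05). Whole reads behind the FPKM were recovered from the steps of the values; all 10624 tested genes came out whole within 0.001, and library totals came from single-transcript genes, of which 126 of 1095 agreed on the commonest total. No library was a copy of another (chi-square per degree of freedom between replicates from 4.71 to 29.2). For the length and GC trend, natural splines (5 degrees of freedom each) in log2 gene length and in the GC content of the longest GENCODE M21 (GRCm38) transcript were fitted to each library's difference from the mean of all libraries, and the fit was subtracted (97.2% of tested genes had a value). Python 3.11.15 with pandas 2.3.3 served for ratios, exact permutation tests and figures. The fits and the read recovery were tested on simulated data.

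Libraries sharing a replicate number deviated together from their medium means, with correlations over genes of 0.151, 0.150 and 0.382. All exceed 0.1, so the rule used for pairing was met. Libraries 1 and 2 hardly favoured their own number, though (DMEM 1 with RPMI-1640 2 gave 0.131, DMEM 2 with RPMI-1640 1 gave 0.137). The main fit and the permutation tests did not treat the numbers as pairs. No label states a pairing, so the fit has no block and the blocked fit is an alternative; with the trend removed the correlations were 0.0567, 0.0408 and 0.151, where the rule is not met.

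The members and lists were chosen with earlier results of these data known. The rule for naming genes beside the 9 members took up to 2 called genes of each list with the largest change. It also took the 5 genes nearest to Slc16a3 in pattern. Outside that rule, the text names cell type markers, genes that overlap members or share sequence with them, and further list genes. Those list genes are Mpc2, Ppia, Max, Hif1a, Arnt, Epas1, Ppargc1a, Hcar1, Ldhal6b and the untested Slc16 genes. Hcar1 and Ldhal6b were named after their values were seen. Alternatives covered the pseudocount, the filter, the scaling, the trend, the replicate block, the variance model, limma-voom on recovered reads and leaving out each library.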

Additional observations from a re-analysis of the deposited data

How the results depend on the processing

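Slc16a8 is part of the counts given here. The filter kept it only through RPMI-1640, so its unchanged calls in the filtered fits add no support. Under the 17 alternatives to the fit, 131 of 135 values of the tested genes kept their direction and their side of the threshold. The 4 exceptions were all Slc16a1. Scaling to a common total turned it to -0.075, and it passed at 0.13 with limma-voom on recovered reads and at 0.49 with the length and GC trend removed, with or without the replicate block. The number of genes called ran from 7454 to 8011 when 1 library was left out, against 8078 with all, and 7 members (Slc16a8 included) were called each time. With the replicate block 8432 genes and 7 members were called, and no member's call changed. With the trend removed, the difference between DMEM and RPMI-1640 in Slc16a3 over Slc16a1 went to 1.63 (2.62 on deposited values), that in Bsg over the summed transporters turned to -1.11 (0.501) and that in the Ldhb share went to 0.0588 percentage points (0.812); the cause was not tested. Over all alternatives the log2 fold change ran from 1.76 to 2.11 for Slc16a3, from 0.78 to 1.25 for Bsg and from -1.35 to -1.04 for Slc16a6. Depth limits Slc16a7, Slc16a8 and Hcar1, with 52, 53 and 45 reads at most in a DMEM library.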
